A study of Mus musculus with 8 samples.

Results

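The first of a pair of Slc17a7+ neuron clusters in a single-nucleus atlas of the mouse striatum is described here. Its members are the nuclei that the authors' annotation table places in cluster 7, named Slc17a7+ neuron. They number 955 of 55672 annotated nuclei, 1.72% of the total, in 1 of 18 clusters. The second Slc17a7+ cluster, cluster 10 of the annotation, holds 529 nuclei and served as the closest comparison.

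Nuclear RNA was read with the 10x Genomics Multiome assay, which profiles RNA and open chromatin of the same nucleus, from 32 untreated mice aged 12 weeks. The mice came from 8 inbred strains. WSB/EiJ, PWK/PhJ and CAST/EiJ derive from wild mice, and the laboratory strains were NZO/HlLtJ, NOD/ShiLtJ, C57BL/6, 129S1/SvImJ and A/J. Every batch held 1 mouse of each strain, 8 mice whose nuclei were pooled before loading, and there were 4 batches, so a mouse is named by its strain and batch and a strain has 4 mice. The sexes were balanced within a batch, and the sex of a single mouse was not analysed here. The design asks how striatal cells differ with genetic background, and each strain is 1 inbred genotype.

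Slc17a7 encodes VGLUT1, the transporter that loads glutamate into the synaptic vesicles of most excitatory neurons of cortex and hippocampus. The neurons of the striatum itself are almost wholly GABAergic, with the Drd1+ and Drd2+ projection neurons as the main classes. Layer 6 of the cortex, which lies just above the white matter covering the striatum, holds corticothalamic (CT) neurons that send axons to the thalamus. Below them lie the layer 6b neurons, a thin band in part left over from the developmental subplate. Genes such as Foxp2, Tle4, Hs3st4 and Syt6 mark CT neurons, and Ccn2, Cplx3, Nxph4 and Moxd1 mark layer 6b.

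Nuclei of the cluster were among the deepest of the data. Their median was 7985 UMIs (unique molecular identifiers, 1 per counted RNA molecule) and 3090 genes, the second highest median UMI number of the 18 clusters, and mitochondrial reads made up 1.19% of counts. Batch 3 was shallow: its median in the cluster was 3570.5 UMIs, against 8042 to 8507 in the other batches. Summed over nuclei, the cluster gave 7639922 counts. Mice contributed unevenly. The 5 mice with most nuclei held 450 of the 955, 12 mice with fewer than 10 nuclei held 63 in all, and 20 mice had at least 10. No barcode sequence occurred in the cluster in more than 1 batch, but 42 of its nuclei share their sequence with an annotated nucleus of another batch. Of the 955 nuclei, 911 (95.4%) are also listed in the deposited index of accessible chromatin, against 87.7% of all annotated nuclei.

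Slc17a7 stood at 253.9 CPM (counts per 1000000 counts of a cluster or mouse), against 262.9 in the second cluster and 4.26 in Drd1+ neurons. Over the 20 mice with at least 10 nuclei the lowest, median and highest values were 137.7, 229.6 and 462.9 CPM. A Slc17a7 UMI was found in 82.9% of the nuclei, against 2.74% of Drd1+ neurons, which should lack the gene and have a median of 6505 UMIs. After thinning each nucleus to 1500 UMIs, which left out 11 nuclei of the cluster and 34 Drd1+ nuclei, these shares were 32.3% and 0.652%. The other vesicular glutamate transporters were near 0: Slc17a6 at 1.70 CPM (13 counts) and Slc17a8 at 2.88 CPM (22 counts). Markers of GABA neurons summed to 36.1 CPM, against 409.2 CPM in Drd1+ neurons.

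Markers of striatal projection neurons were present at a low level in the cluster. The 10 of them summed to 1104 CPM, against 1107 CPM in the second Slc17a7+ cluster and 6113 CPM in Drd1+ neurons. Pde10a, a striatum-enriched phosphodiesterase, made up most of this sum at 795.7 CPM. Oligodendrocyte markers summed to 986.3 CPM and were likewise close to the 987.9 CPM of the second cluster. In oligodendrocytes Pde10a was at 104.2 CPM and the striatal list at 771.8 CPM. The part of free RNA in these values was not tested.

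Because the clusters were cut on expression, levels in the cluster against other clusters are a description and carry no test. Of 1818 genes of at least 100 CPM in the cluster, 112 were at least 4-fold above all other annotated nuclei pooled and 35 at least 10-fold. Trabd2b, a membrane protease that inactivates Wnt ligands, led at 168.6 CPM, 123.9-fold above the other nuclei. Tmem178 followed at 353.7 CPM and 43.3-fold. Zfpm2, a zinc finger cofactor of GATA factors, reached 1488 CPM, 29.9-fold, and its mouse values ran from 1206 to 1937 CPM. Dpp10, a potassium channel subunit, stood at 14650 CPM, 30.0-fold. Slc17a7 itself was fourteenth in this order, at 25.3-fold. A further 9 genes of the leading 15, by fold, were 9130024F11Rik, Gm49678, Gm2824, Galnt9, Vxn, Rai14, Kcnj6, Hs3st2 and Cadps2, at 23.2- to 40.4-fold. Outside the Slc17a7+ clusters, Trabd2b and Rai14 were higher still in fibroblasts, and Gm49678 in Chat+ interneurons.

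Of the 8 markers of cortical projection neurons, 3 were higher in the first cluster and 5 in the second, with a median log2 difference of -0.34. Neurod2, Neurod6, Tbr1 and Emx1 were at 58.3, 47.1, 42.8 and 10.6 CPM in the cluster and between 0.154 and 1.02 CPM in Drd1+ neurons. Nrgn and Camk2a, genes of synaptic calcium signalling, did not set the cluster apart from Drd1+ neurons, at 208.6 against 227.6 CPM and 374.6 against 397.2 CPM. Mef2c, a transcription factor, was at 508.1 CPM in the first cluster and 905.2 CPM in the second, which was higher in 14 of 14 mice. Tbr1, a T-box factor of deep-layer identity, was higher in the first cluster in 13 of the 14 mice with at least 10 nuclei in both clusters. The whole profiles were alike: over 5518 genes of at least 100 CPM in any cluster, log2(CPM + 1) of the first cluster correlated with that of the second at r = 0.96. The next highest were Nxph1+ interneurons at r = 0.90 and the second Drd1+ cluster at r = 0.90. These are correlations across genes, which are not independent replicates.

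Layer 6 CT markers set the first cluster apart. All 6 of the list were at least 2-fold higher than in the second cluster, with a median log2 difference of 3.29. On this scale, with 5 CPM added to both sides, 1.28% of all 16520 genes of at least 1 CPM were 2-fold higher in the first cluster and 2.2% in the second, and the median gene differed by -0.03. Hs3st4, a heparan sulfate sulfotransferase, stood at 2608 CPM against 120.0 CPM. In the 14 mice with both clusters its values ran from 2083 to 3138 CPM (median 2428) in the first and from 0 to 354.1 CPM (median 69.5) in the second. Foxp2, a forkhead transcription factor, ran from 667.1 to 1157 CPM (median 887.2) against 0 to 44.4 CPM (median 4.15). The groups of values do not overlap for either gene. Tle4, a corepressor, was at 672.5 against 53.9 CPM, Garnl3 at 753.8 against 144.5, Syt6 at 125.8 against 10.8 and Rprm at 23.0 against 1.32.

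Some of these CT markers are also genes of striatal projection neurons. Drd1+ neurons had 995.3 CPM of Foxp2, 409.5 of Tle4 and 195.6 of Syt6, so these genes separate the Slc17a7+ clusters from each other but not the first cluster from its striatal surroundings. Hs3st4 was at 398.6 CPM in Drd1+ neurons, with a UMI in 75.1% of them against 99.7% in the cluster. Garnl3 was at 102.9 CPM and Rprm at 0.807 CPM there. Zfpm2, which was not on the list, stood at 3.56 CPM in Drd1+ neurons.

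All 4 layer 6b markers were at least 2-fold higher in the first cluster too, at a far lower level. Ccn2, a secreted matricellular protein, was at 61.4 CPM against 1.06 CPM. Cplx3, a complexin, was at 14.1 against 0.264, Nxph4, a neurexophilin, at 9.16 CPM against 0 counts in the second cluster, and Moxd1 at 28.3 against 0.528. Their sum varied widely between mice, from 0 to 262.7 CPM (median 104.5, 20 mice). A Ccn2 UMI was found in 16.2% of the nuclei of the first cluster, 0.756% of the second and 0.227% of Drd1+ neurons.

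**Figure D1:**
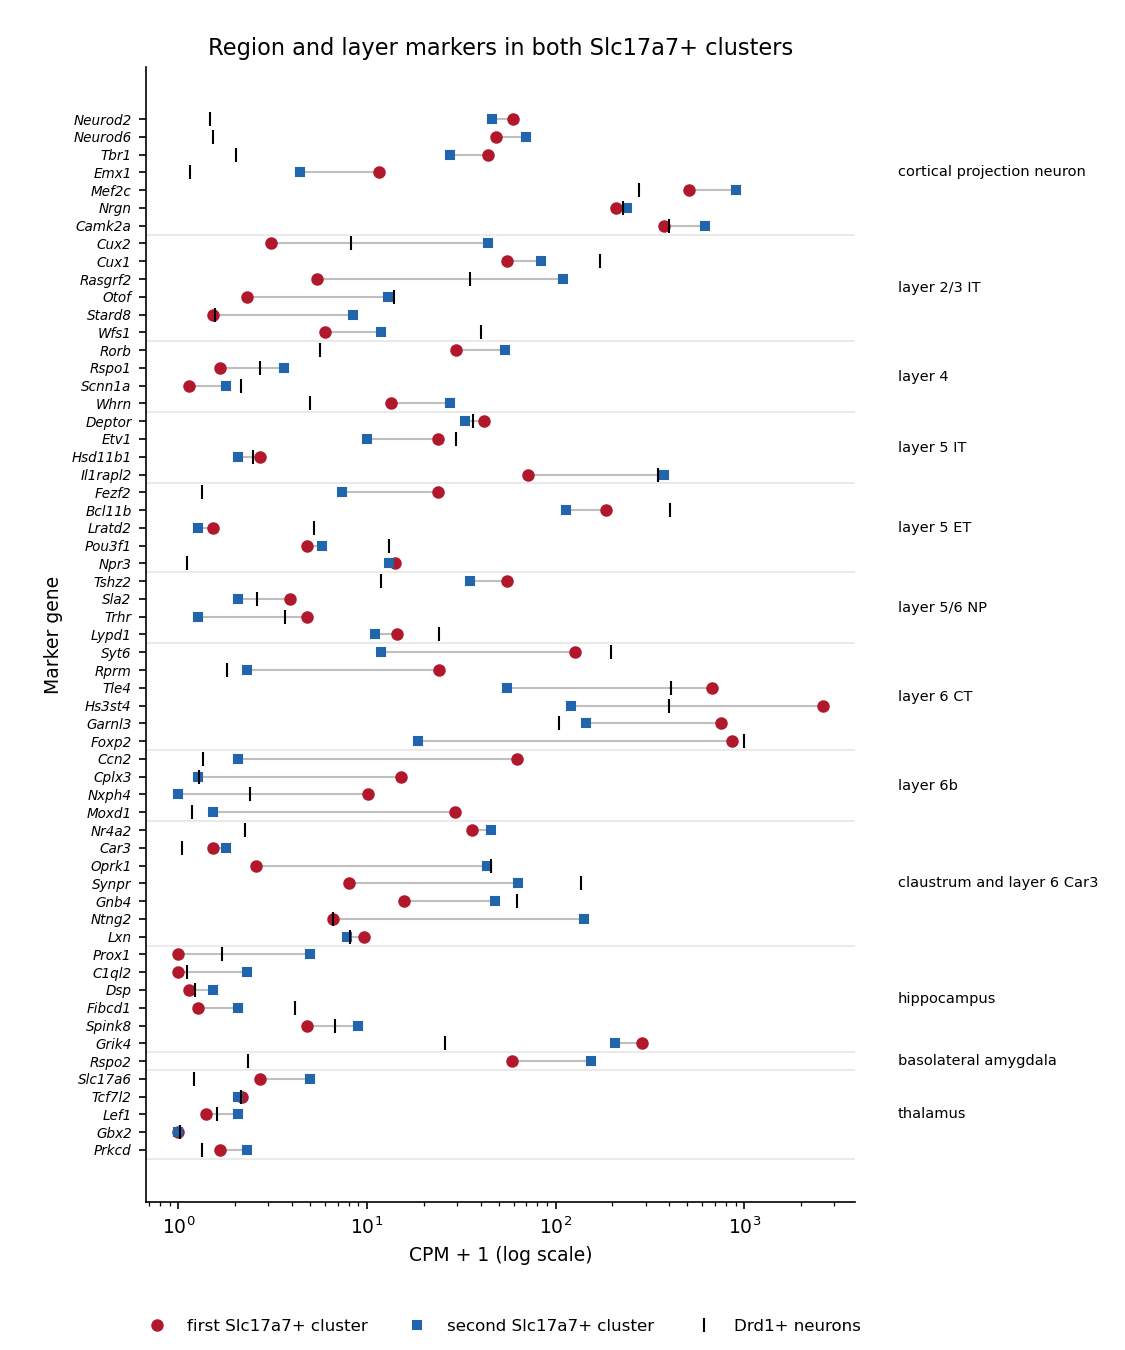
CPM + 1 (log scale) of region and layer markers in the first Slc17a7+ cluster (red circles), the second (blue squares) and Drd1+ neurons (black bars), grouped by marker list. The layer 6 CT and layer 6b genes lie to the right in the first cluster, and most layer 2/3, claustrum and amygdala genes in the second, while hippocampal genes other than Grik4 and thalamic genes lie near the left edge in both.

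Markers of the other layers went both ways. All 6 layer 2/3 intratelencephalic (IT) genes were higher in the second cluster, 4 of them at least 2-fold, and Cux2 was at 2.09 CPM in the first against 42.8 CPM. Of the 7 claustrum genes, 6 were higher in the second cluster and 4 at least 2-fold, among them Ntng2, a netrin-G adhesion protein, at 5.63 against 141.1 CPM. Rspo2, a Wnt pathway activator and the only basolateral amygdala marker listed, was at 57.9 against 153.8 CPM and higher in the second in 14 of 14 mice. The 4 layer 5/6 near-projecting (NP) genes were each higher in the first cluster and none by 2-fold, with a sum of 74.4 against 45.5 CPM. The 5 layer 5 extratelencephalic (ET) genes summed to 224.2 against 136.6 CPM, and 4 were higher in the first cluster. Bcl11b, a transcription factor also of striatal neurons (404.1 CPM in Drd1+ neurons), was at 184.2 against 113.1 CPM. Of the 4 layer 5 IT genes 3 were higher in the first, but Il1rapl2 was at 70.0 against 372.3 CPM. Among the ET genes, Fezf2, a zinc finger factor of subcortical projection neurons, was at 22.6 against 6.34 CPM and higher in the first in 13 of 14 mice.

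Hippocampal and thalamic markers gave little signal in the cluster. Prox1 and C1ql2, genes of dentate granule cells, had 0 counts in its 7639922. Dsp, Fibcd1 and Spink8 had 1, 2 and 29 counts, and the sum of the list, 291.1 CPM, came almost wholly from Grik4, a kainate receptor gene, at 286.9 CPM. The 5 thalamic markers summed to 3.93 CPM, and Gbx2 had 0 counts.

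The genes with the largest differences between the clusters, whatever their list, extended this contrast. Among 2013 genes of at least 100 CPM in either cluster, 13 (0.646%) were at least 4-fold higher in the first and 33 (1.64%) in the second, with 5 CPM added. The 15 leading genes of the first were Foxp2, Hs3st4, Zfpm2, Tle4, Trabd2b, Syt6, Glra2, Pitpnc1, Cdh18, Garnl3, Ephb1, Kcnk2, Sema5a, Pdzrn4 and Zeb1, with log2 differences from 5.25 to 1.89. All 15 were higher in the first cluster in 14 of 14 mice. They were picked on their ratio in nuclei that include those of these mice, so this count is a description only. Cdh18, a cadherin, was the most abundant of them at 3790 against 613.2 CPM. Glra2, a glycine receptor subunit, was at 108.0 against 12.2 CPM, and Sema5a, a semaphorin, at 214.5 against 48.1 CPM.

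On the side of the second cluster the leading gene was C1ql3, which encodes a secreted synaptic protein of the C1q family. It ran from 0 to 3.96 CPM (median 0) in the first and from 167.4 to 453.7 CPM (median 275.8) in the second over the 14 mice. Tafa1 followed at 3.53 against 302.8 CPM, Pparg, a nuclear receptor, at 1.18 against 131.8, Ptprk, a receptor phosphatase, at 36.8 against 600.3, Unc5d, a netrin receptor, at 40.1 against 566.5, and Rasgrf2, a Ras exchange factor, at 4.45 against 108.3. The other genes of its 15 were Ntng2, Ntng1, Pdzrn3, Schip1, Galnt14, Lingo2, Rtl4, Tafa2 and Slc24a4. In every one of these 15, picked in the same way, the second cluster was higher in at least 11 of 14 mice. The log2 differences lay between -5.37 and -2.49. Pooled Slc17a7 levels were close, at 253.9 CPM in the first cluster and 262.9 CPM in the second. By mouse, Slc17a7 was higher in the second cluster in 10 of 14 and in the first in 4. The mean log2 difference over the 14 mice was -0.245 ± 0.383 (SD).

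Glutamate receptor genes, 18 in all, were split evenly: 9 were higher in each cluster, and the median log2 difference was -0.06. Of the AMPA receptor genes, Gria2 (2383 CPM) and Gria3 (1229 CPM) were higher in the first cluster than in any of the other 17, whereas Gria4 was at 532.6 against 1296 CPM in the second cluster. The kainate receptor genes Grik3 (360.6 CPM) and Grik4 were well above Drd1+ neurons, where they were at 5.54 and 25.0 CPM. The metabotropic Grm8 was at 915.8 CPM, the highest of the 18 clusters, and Grm5 at 1247 CPM, against 4521 CPM in Drd1+ neurons. Immediate early genes, which rise with neuronal activity, summed to 232.1 CPM, with 269.2 CPM in the second cluster and 217.9 CPM in Drd1+ neurons. Bdnf, a growth factor gene of this list, was at 6.15 CPM against 54.7 CPM in the second cluster, which was higher in 14 of 14 mice.

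Clustering the 955 nuclei again, on 2000 variable genes, gave 5 sub-clusters of 513, 251, 151, 20 and 20 nuclei. Their leading genes describe the partition and are not tested. Sub-clusters 1 and 2, with 53.7% and 26.3% of the nuclei, both held the CT genes, at sums of 5522 and 4898 CPM, and hardly any layer 6b RNA (5.05 and 21.7 CPM). Sub-cluster 1 was led by Kcnc2, Ptprk, Cdh20, Edil3 and Car10, and sub-cluster 2 by Nnat, Egfem1, Gm13391, Spag16 and Lingo2. Egfem1 was at 1025 CPM in sub-cluster 2 and 183.7 CPM in the other nuclei, and Car10 at 1027 CPM in sub-cluster 1 and 306.3 CPM in the others. Both were found in 28 mice of all 8 strains.

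Sub-cluster 3, 151 nuclei from 23 mice, was layer 6b-like. All 4 layer 6b genes were highest there, with a sum of 572.2 CPM, and Ccn2 (310.7 CPM against 7.33 in the other nuclei) and Moxd1 (147.6 against 2.39) were among its 10 leading genes. It was led by Inpp4b, a phosphoinositide phosphatase, at 2361 CPM against 78.0 CPM. Foxp2 was at 199.8 CPM, against 1152 CPM in sub-cluster 1, and Hs3st4 was at 2914 CPM. Nr4a2, a nuclear receptor expressed in layer 6b and claustrum, was at 123.4 CPM, against 3.19 CPM in sub-cluster 1.

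Sub-cluster 5, 20 nuclei from 10 mice, was layer 5/6 NP-like. The 4 NP genes summed to 2882 CPM, against 17.3 to 66.8 CPM elsewhere, and Tshz2, a zinc finger factor, made up 2656 CPM of it. Nxph1, Grik1, Kcnip1 and Gpc6 followed among its leading genes, and Etv1 reached 486.0 CPM. CT genes summed to 2874 CPM in the same nuclei, about as much, though Syt6 had no count in 119344 counts.

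Sub-cluster 4, also of 20 nuclei, was left unnamed. It was led by Rarb, Dach1, Pbx3, Thsd7a and Pde7b, held 169.4 CPM of the striatal dopamine receptor gene Drd2 (1.47 to 3.86 CPM in sub-clusters 1 to 3), and its striatal projection neuron markers summed to 3955 CPM, against 879.8 to 1045 CPM in the others. CT genes summed to 3902 CPM in the same nuclei and Slc17a7 was at 141.1 CPM. Their median was 15276 UMIs, against 7985 for the cluster, and they came from 11 mice of 8 strains, at most 4 from a single mouse and none from batch 3. The authors' doublet calls had been applied before, and the part of doublets in these nuclei was not tested. Without them Foxp2 and Hs3st4 differed from the second cluster by log2 values of 5.24 and 4.41, against 5.25 and 4.39 with them.

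**Figure D2:**
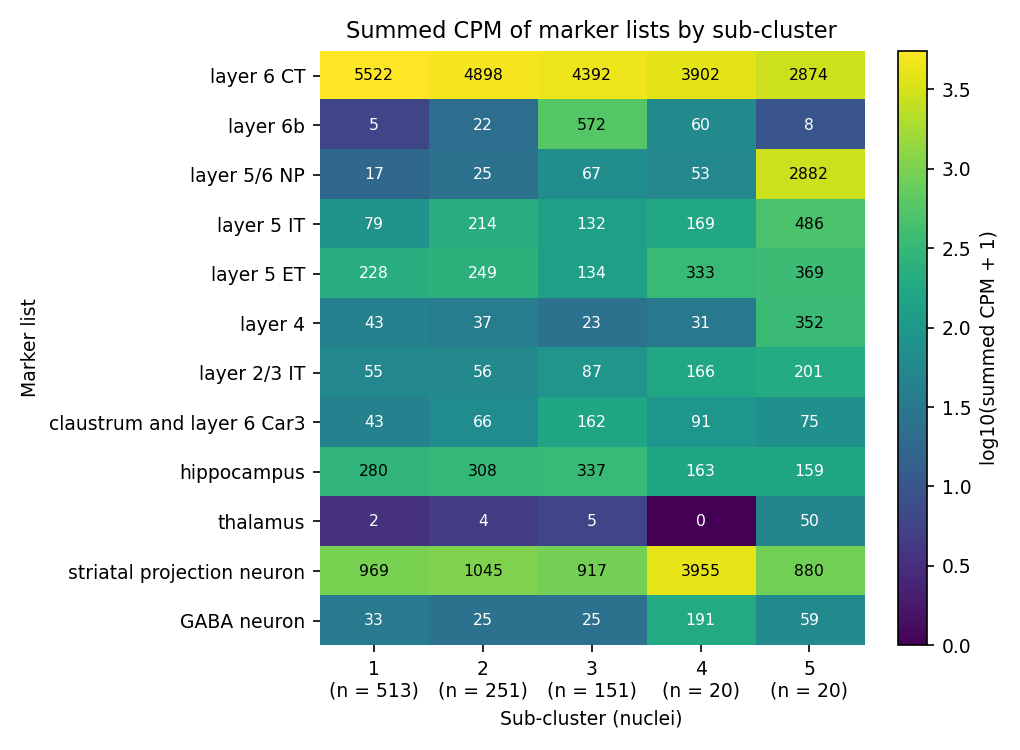
Summed CPM of 12 marker lists (rows) in the 5 sub-clusters of the first Slc17a7+ cluster (columns), with colour on a log10 scale and the sum printed in each cell. Layer 6b genes peak in sub-cluster 3, layer 5/6 NP genes in sub-cluster 5 and striatal genes in sub-cluster 4.

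The proportions of these sub-clusters varied between mice. In the 20 mice with at least 10 nuclei, sub-cluster 1 made up 10 to 95.8% (median 47.4%), sub-cluster 2 made up 0 to 70% (median 29.2%) and sub-cluster 3 made up 0 to 39.7% (median 17.2%). Counted over nuclei, sub-cluster 3 held 32.9% of those of PWK/PhJ and 7.07 to 24.1% of those of the other strains. The PWK/PhJ value rests on its batch 1 mouse, with 23 of the 28 nuclei. The PWK/PhJ mice of batches 1 to 4 had 39.7, 27.8, 0 and 0% of their 58, 18, 2 and 7 nuclei. Those of batches 3 and 4 thus have fewer than 10 nuclei. The WSB/EiJ mouse of batch 1 had 35.7% of its 14 nuclei. Batch 3, the shallow one, had 66 of its 94 nuclei in sub-cluster 1 and 4 in sub-cluster 3. The partition depends on its settings. At double the resolution there were 8 sub-clusters, and 1 of them held 64.5% of the CAST/EiJ nuclei and 9.09% of all others. Of the 141 CAST/EiJ nuclei in the cluster, 89 came from the batch 2 mouse, and this group was not split by mouse. That resolution was chosen for this remark after the values were seen. Without batch 2 there were 3 sub-clusters, and the group with most Tshz2 RNA and that with most Rarb RNA each held 174 nuclei. Without batch 1 the group with most Rarb RNA held 88 nuclei, and without batch 4 the Ccn2 and Rarb groups held 89 and 12.

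The share of the cluster among a mouse's nuclei was small and very variable. Over the 32 mice it was 1.63 ± 1.50% (SD), from 0 to 5.0%. The highest shares were in CAST/EiJ of batch 2, with 89 of 1780 nuclei (5.0%, exact 95% interval 4.03 to 6.12%), and NOD/ShiLtJ of batch 4, with 94 of 1888 (4.98%, 4.04 to 6.06%). NZO/HlLtJ of batch 1 had 0 of 1726 nuclei, which allows a share of up to 0.174% by 3 counts of the total. The exact interval of that mouse ends at 0.214%. These intervals cover counting error only. In tissue, fewer cells of a type in the piece taken and fewer nuclei recovered from them cannot be told apart.

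Strain means overlapped. They ran from 0.796 ± 0.71% in 129S1/SvImJ and 0.862 ± 1.19% in NZO/HlLtJ through 1.15 ± 1.16% in PWK/PhJ, 1.66 ± 2.04% in C57BL/6, 1.77 ± 1.46% in A/J, 2.08 ± 1.39% in WSB/EiJ and 2.16 ± 2.15% in CAST/EiJ to 2.56 ± 1.81% in NOD/ShiLtJ (SD, n = 4 mice each). No neighbours in this order differ by more than their SD. A permutation test of the strain term with labels shuffled within batch gave p = 0.216 (adjusted over 18 clusters, 0.431). Mice of the same strain differed widely, as in 129S1/SvImJ with 2, 4, 24 and 20 nuclei in batches 1 to 4 and PWK/PhJ with 58, 18, 2 and 7.

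Batches differed. The mean share was 0.881 ± 0.98% in batch 1, 2.19 ± 1.70% in batch 2, 0.79 ± 0.72% in batch 3 and 2.66 ± 1.60% in batch 4 (SD, n = 8 mice each). The permutation test of batch within strain gave p = 0.0155 (adjusted over 18 clusters, 0.0439), and without batch 4 it gave p = 0.0741. The share of the second cluster did not pass the same permutation test (p = 0.43), and the difference between the clusters in this respect was not tested. Depth per nucleus moved with batch 3, whose median is given above, and its part in the share was not tested.

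**Figure D3:**
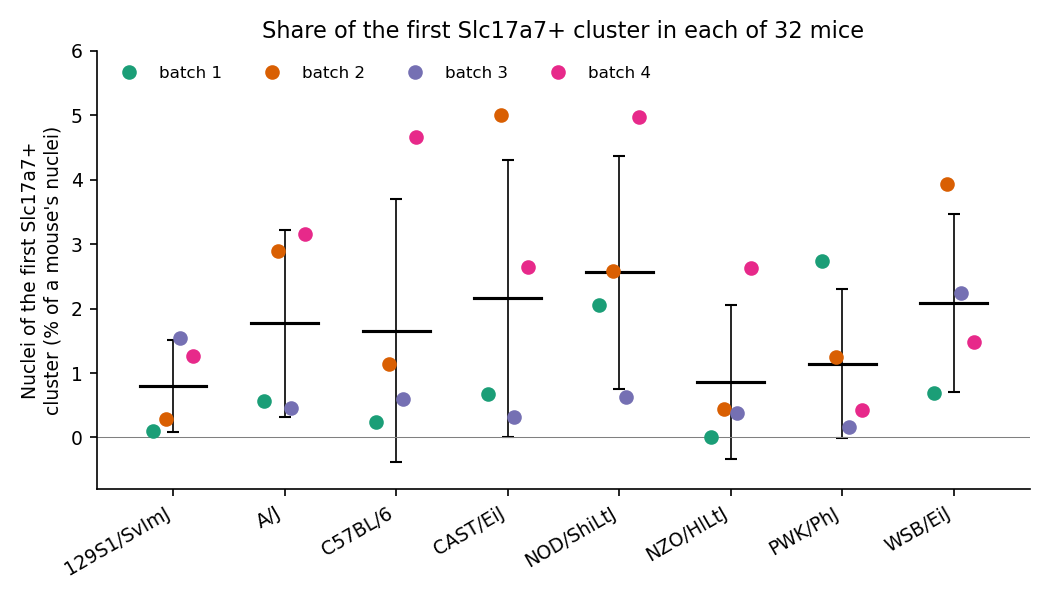
Share of the first Slc17a7+ cluster among a mouse's annotated nuclei (percent) by strain, with 1 point per mouse coloured by batch, the mean as a bar and the SD as whiskers (n = 4). The strains overlap between 0 and 5.0%, and the means of batches 1 and 3 (0.881 and 0.79%) lie below those of batches 2 and 4 (2.19 and 2.66%).

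Mice rich in the first cluster were rich in the second. Shares were taken as log2 of nuclei (with 0.5 added) over the mouse's nuclei outside the pair of clusters compared, and 17 clusters were compared with the first across 32 mice. The permutation tests of these correlations shuffled mice freely, not within batch, so differences between batches enter them. The second Slc17a7+ cluster gave r = 0.74 (permutation p = 1e-05, the smallest that 100000 resamples can give; adjusted p = 0.00017) and Spearman's rho = 0.73 (permutation p = 1e-05, adjusted p = 0.00017). Within batches 1 to 4, r was 0.77, 0.70, 0.54 and 0.95. Without the 2 mice farthest from the median share, 129S1/SvImJ and NZO/HlLtJ of batch 1, r was 0.70. The first cluster had more nuclei than the second in 24 mice and fewer in 8.

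Oligodendrocytes rose with the cluster and Drd1+ neurons fell. For oligodendrocytes, the myelin-forming cells of white matter, r was 0.60 (permutation p = 0.00028, adjusted p = 0.00238) and rho 0.58 (permutation p = 0.00071, adjusted p = 0.00402). Within batches 1 to 4 it was 0.69, 0.27, 0.85 and 0.73, and without the same 2 mice 0.62. For Drd1+ neurons, the largest striatal class, r was -0.56 (permutation p = 0.00099, adjusted p = 0.00561) and rho -0.64 (permutation p = 0.00019, adjusted p = 0.00162). Within batches it was -0.66, -0.14, -0.59 and -0.66, and without the 2 mice -0.58. Batch 2 was thus the weakest for both. Astrocytes passed by rank only (r = 0.36, permutation p = 0.0413, adjusted p = 0.123; rho = 0.48, permutation p = 0.00601, adjusted p = 0.0255). Their r within batches 1 to 4 was 0.08, 0.55, 0.51 and 0.11. The astrocyte share itself differed by batch (permutation p = 0.00033, adjusted over 18 clusters, 0.00594). The other 13 clusters passed neither adjusted test, Drd2+ neurons with r = -0.38 (adjusted permutation p = 0.123) among them. The shares of a mouse come from 1 pool of nuclei and 1 denominator, so they are not free to vary apart.

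**Figure D4:**
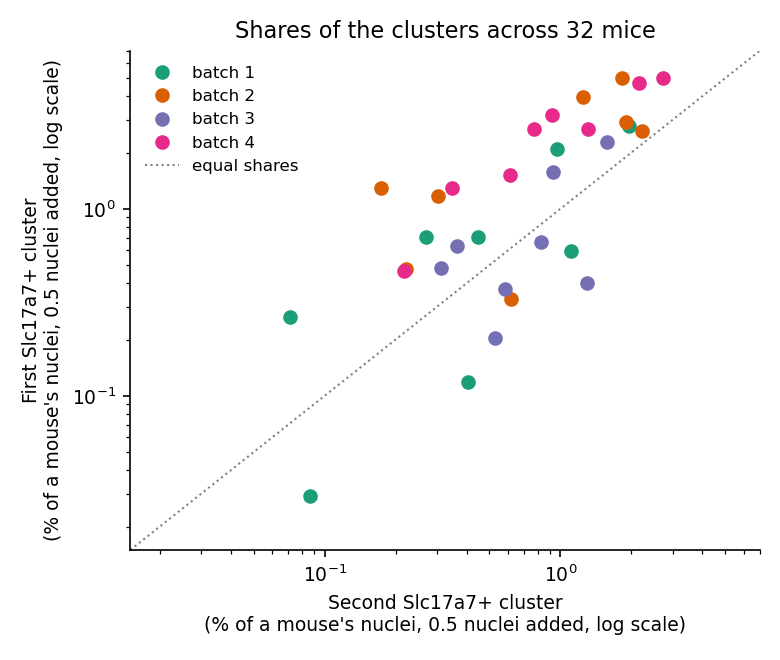
Shares of the first (vertical) and second (horizontal) Slc17a7+ cluster in each of 32 mice, both log scaled with 0.5 nuclei added and coloured by batch, and the dotted line of equal shares. The points rise together, and 24 lie above the line.

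Strain differences within the cluster were tested on counts summed per mouse. Of the 20 mice with at least 10 nuclei, 19 from 7 strains entered, 2 to 4 a strain, with 91572 to 1077748 counts. NZO/HlLtJ had 1 such mouse and was left out. Depth per nucleus did not pass a test between these strains (median UMIs 3606 to 10194 over mice, permutation p = 0.136). In edgeR's quasi-likelihood test with strain and batch, 166 of 6594 genes (2.52%) were called at a Benjamini-Hochberg adjusted p under 0.05, and 820 had an unadjusted p under 0.05. Without batch 2, which leaves 11 mice of 5 strains, 45 genes were called. Without batch 3 there were 277, and with sub-clusters 1 and 2 only there were 96.

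Each strain was also set against the mean of the others in the same fit. CAST/EiJ had most calls, 68 genes higher and 25 lower (1.41% of the tested), followed by PWK/PhJ with 29 and 16 (0.682%) and NOD/ShiLtJ with 29 and 8 (0.561%). WSB/EiJ had 14 and 7 (0.318%), A/J 11 and 5 (0.243%), C57BL/6 6 and 1 (0.106%) and 129S1/SvImJ 4 and 0 (0.0607%). The strains have 2 to 4 mice, so their counts are not on equal footing. An extreme strain also shifts the mean that the rest are set against, so a call need not mark the strain that stands apart. Cwc22 was called lower in CAST/EiJ (edgeR adjusted p = 0.0471) at a mean of 28.9 CPM. Its means were 21.3 CPM in PWK/PhJ and 1409 CPM in WSB/EiJ. Without batch 2, CAST/EiJ had 43 calls, NOD/ShiLtJ 4 and WSB/EiJ 12. Without batch 3, A/J had 42, and without batch 1, NOD/ShiLtJ had 13. Each fit without a batch held 5 or 6 of the 7 strains, so the mean of the others is over different strains in each. Without batch 4, which leaves 11 mice of 5 strains, PWK/PhJ had most calls, 65 against 59 in CAST/EiJ, and WSB/EiJ had 9.

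The gene with the largest F statistic was Cwc22, a splicing factor on chromosome 2 (77881159 to 77946356, GRCm38). The 4 WSB/EiJ mice had 1431, 1503, 1261 and 1442 CPM, and the other 15 tested mice had 15.3 to 69.8 CPM, with no overlap. The contrast of WSB/EiJ with the others was 5.66 ± 0.15 on the log2 scale (SE, edgeR adjusted p = 7.183e-28). Drd1+ neurons of the same WSB/EiJ mice had 1590 CPM on average, and those of the other strains 33.2 to 53.8 CPM.

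Clvs2, which encodes clavesin 2, a lipid-binding protein of clathrin-coated vesicles (chromosome 10, 33512286 to 33624684), was a CAST/EiJ gene. Its CAST/EiJ mice had 482.5, 419.4 and 462.4 CPM, and all others 64.3 to 168.3 CPM. The difference was 2.19 ± 0.16 (log2, SE; edgeR adjusted p = 4.086e-13). In Drd1+ neurons Clvs2 was also highest in CAST/EiJ, at 206.4 CPM on average against 55.8 to 64.5 CPM in the other tested strains. B530045E10Rik was also high in CAST/EiJ, at 167.8, 132.1 and 436.2 CPM, and had 8 counts in all in the other 16 mice. DESeq2's likelihood ratio test did not call it (adjusted p = 0.9998) although the values do not overlap. Its Drd1+ means were 164.8 CPM in CAST/EiJ and 0.948 to 2.34 CPM in the other tested strains.

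Catspere1 and Catspere2, neighbours on chromosome 1 (177808419 to 177962253 and 177983155 to 178172707), encode related subunits of a sperm calcium channel, and reads could be split between them. PWK/PhJ was highest for both, with 155.7 ± 18.6 CPM of Catspere1 and 628.1 ± 31.6 CPM of Catspere2 (SD, n = 2). A/J and WSB/EiJ also rose for both genes, with 298.4 ± 39.6 CPM (SD, n = 3) and 308.7 ± 56.6 CPM (SD, n = 4) of Catspere2. CAST/EiJ was lowest for Catspere2, at 43.6 ± 24.5 CPM (SD, n = 3), 2.42 ± 0.26 below the others on the log2 scale (SE, edgeR adjusted p = 2.347e-08). Catspere1 had 0 counts in 129S1/SvImJ, C57BL/6 and NOD/ShiLtJ, which allows up to 10.3, 4.10 and 1.96 CPM in the summed counts of these strains.

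For Gm17167, a predicted gene, the tested strains split in a pair of sets. The mice of C57BL/6, NOD/ShiLtJ and PWK/PhJ had 93.9 to 180.1 CPM, and those of the other 4 tested strains had 0 to 5.32 CPM. The NZO/HlLtJ mouse outside the test lay between these ranges, at 73.8 CPM. In Drd1+ neurons the same 3 strains were the high ones, at 24.2, 30.4 and 72.5 CPM on average, against means of 105.1, 117.2 and 174.5 CPM in the first Slc17a7+ cluster. The interaction of strain and cluster was not called for it (edgeR adjusted p = 0.6254).

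Btbd9, a BTB domain protein on chromosome 17 (30215524 to 30582621), was at 754.3 ± 167.9 CPM in A/J (SD, n = 3), 742.9 ± 35.3 in CAST/EiJ (SD, n = 3) and 571.7 ± 34.7 in 129S1/SvImJ (SD, n = 2). It was at 203.3 to 277.3 CPM on average in the other 4 strains, and no mouse of these reached the lowest of the first 3 strains (547.1 CPM). The same 3 strains were the highest in Drd1+ neurons, with means of 270.1 to 492.4 CPM, against 187.1 to 200.2 CPM in the other 4. The lncRNA Gm41561 lies at 30848454 to 30858211 of the same chromosome, inside the gene Dnah8, a dynein heavy chain, and reads of the pair may not be told apart. Its A/J and CAST/EiJ means were 15.9 ± 3.7 and 40.7 ± 8.9 CPM, and no count was found in the other 5 strains. Dnah8 was called as well (edgeR adjusted p = 0.000713), with 48.7 ± 4.0 CPM in CAST/EiJ and 10.6 ± 5.6 in A/J (SD, n = 3 each). WSB/EiJ was at 7.98 ± 12.7 CPM (SD, n = 4), with 1 mouse at 26.6 CPM, above every A/J mouse. Glo1, between Btbd9 and Dnah8, was at only 22.2 CPM on average and was not called (edgeR adjusted p = 0.579). The other tested genes within 500000 bases of Btbd9 were Zfand3 (216.2 CPM) and Abcg1 (25.4 CPM). Neither was called (edgeR adjusted p = 0.543 and 0.896). A gene that was not called may still differ. These neighbours were looked up after the values of Btbd9 and Gm41561 were seen.

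The remaining genes of the leading 10 were AC149090.1, 4930447C04Rik and Gm10635. AC149090.1 ran from 56.2 ± 18.5 CPM in A/J to 1966 ± 165 CPM in CAST/EiJ (SD, n = 3 each). The Drd1+ means of these strains were 99.5 and 2102 CPM. 4930447C04Rik (chromosome 12, 72880193 to 72917957) had no count in PWK/PhJ, which allows up to 4.51 CPM, and 197.6 ± 77.7 CPM in 129S1/SvImJ (SD, n = 2). C57BL/6 and A/J were also high for it, at 149.5 and 118.4 CPM on average, and the NZO/HlLtJ mouse outside the test had 127.7 CPM. The means of CAST/EiJ, NOD/ShiLtJ and WSB/EiJ were at most 38.8 CPM. The lncRNA Gm10635 (chromosome 9, 79444037 to 79519302) was at 28.9 and 259.5 CPM in the 2 C57BL/6 mice and at 63.1 and 5.10 CPM in the 2 of 129S1/SvImJ, with 2 counts in all other tested mice together. Mice of the same strain thus lay far apart, and DESeq2 did not call the gene (adjusted p = 0.9998). In Drd1+ neurons of these 4 mice it had 0 counts.

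The gene with the largest fold per strain repeated some of these: Cwc22 in WSB/EiJ, B530045E10Rik in CAST/EiJ, Gm10635 in C57BL/6, Gm41561 in A/J and 4930447C04Rik in both 129S1/SvImJ and PWK/PhJ. 4930447C04Rik was called higher in C57BL/6 and A/J too (edgeR adjusted p = 1.247e-07 and 4.377e-05). Its log2 contrasts there were 3.09 ± 0.34 and 2.19 ± 0.31, against 2.99 ± 0.44 in 129S1/SvImJ (SE). The 129S1/SvImJ call thus does not mark that strain alone. The A/J call of Gm41561 (edgeR adjusted p = 0.0335) was lost without batch 1 (0.0835), with at least 20 nuclei (0.301), with sub-clusters 1 and 2 only (0.179), without sub-cluster 4 (0.0578) and in DESeq2 (0.0821). In NOD/ShiLtJ it was Gm3892, a predicted gene, at 37.0 ± 10.7 CPM (SD, n = 3) against means of 0 to 8.23 CPM in the other tested strains (edgeR adjusted p = 7.231e-05). The NZO/HlLtJ mouse outside the test had 19.9 CPM.

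**Figure D5:**
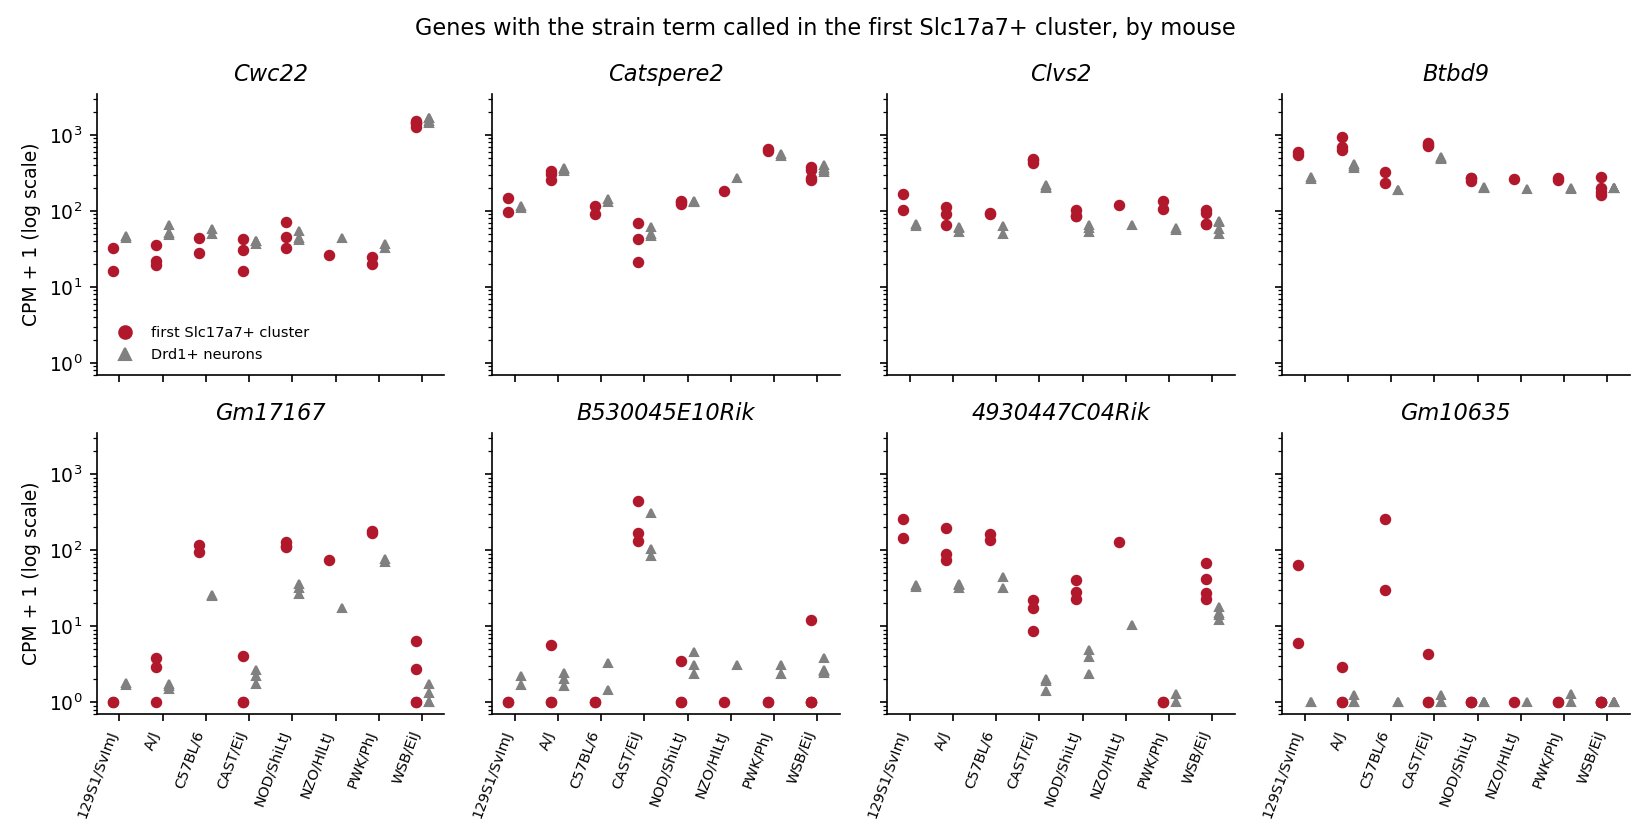
CPM + 1 (shared log scale) of 8 genes with a called strain term, by strain, with 1 red circle per mouse for the first Slc17a7+ cluster and 1 grey triangle for the Drd1+ neurons of the same mouse; all 20 mice with at least 10 nuclei are shown, NZO/HlLtJ included. Cwc22 stands apart in WSB/EiJ, Clvs2 and B530045E10Rik in CAST/EiJ, and Gm10635 has points above 20 CPM only among C57BL/6 and 129S1/SvImJ mice of the Slc17a7+ cluster.

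Of 10 genes chosen earlier because they differ between strains in Drd1+ neurons of these same mice, 9 were called in the cluster by edgeR and 8 by DESeq2, against 2.52% of all genes tested by edgeR. The list was chosen on these mice and is not independent evidence. Besides those above, Tmem181a, a membrane protein with near-identical copies, ran from 31.4 ± 6.7 CPM in WSB/EiJ (SD, n = 4) to 209.8 ± 15.7 in 129S1/SvImJ (SD, n = 2). Psat1, an enzyme of serine synthesis, was highest in WSB/EiJ at 77.8 ± 32.0 CPM (SD, n = 4). Its strain term had an edgeR adjusted p of 0.000269. That call was lost in 2 of 13 alternatives, without batch 4 (0.0719) among them. The calls of Ulk4 (edgeR adjusted p = 0.0131) and Acp1 (0.0334) were lost without batch 2 (0.102 and 0.45) and without batch 4 (0.789 and 0.492), that of Ulk4 also without batch 3 (0.112) and that of Acp1 without batch 1 (0.107). In all, the call was lost in 6 alternatives for Ulk4 and 8 for Acp1 of the 13 tried, among them mice with at least 20 nuclei (0.127 and 0.216) and strains with at least 3 mice (0.698 and 0.123). Dnah6, a dynein, was not called (edgeR adjusted p = 0.17). Of the alternatives in which it was tested, 1 called it (edgeR adjusted p = 0.0252) and 3 did not.

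Whether strain differences were the same in the cluster as in Drd1+ neurons was tested in edgeR as an interaction, with the mouse as a block. It was called for 230 of 6594 genes (3.49%), 42 of them among the 166 of the strain term, and for 123 without batch 1, 83 without batch 2 and 138 without batch 4. Of the 17 genes named here, 3 were called. Dnah6 (edgeR adjusted p = 0.0287) was at 112.3, 116.8 and 155.1 CPM in Drd1+ neurons of 129S1/SvImJ, A/J and PWK/PhJ and at 25.6, 12.2 and 44.5 CPM in the cluster. The levels in the cluster rest on few counts in the 2 mice of 129S1/SvImJ (10.5 and 40.8 CPM, 1 and 8 counts) and the 2 of PWK/PhJ (13.9 and 75.1 CPM, 7 and 12 counts). Dnah6 did not pass the expression filter in any fit with a batch left out, so its call was not checked there. Btbd9 (0.0315) was at 270.1 CPM in Drd1+ neurons of 129S1/SvImJ and 571.7 CPM in the cluster. The same pair of values was 388.3 and 754.3 CPM in A/J, 492.4 and 742.9 CPM in CAST/EiJ, and 199.6 and 203.3 CPM in WSB/EiJ. Btbd9 lost the call without batch 1, 3 or 4 (0.22, 0.257 and 0.511). Ulk4 (0.0455) was at 151.6 CPM in Drd1+ neurons of C57BL/6 and 94.7 CPM in the cluster, and lost it without batch 1, 2 or 4 (0.516, 0.88 and 0.872). For the other 14 the test does not show that the differences are equal.

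The cluster's own markers are too few to set against the share called among all genes. Of the 6 CT genes, all tested, 0 were called by edgeR and 0 by DESeq2, beside 2.52% of all genes by edgeR, and Hs3st4 and Garnl3 had an unadjusted p under 0.05 (edgeR adjusted p = 0.312 and 0.336). Slc17a7 was not called (0.256). Of 17 tested glutamate receptor genes, 2 were called, beside the same 2.52% of all genes. Gria4 ran from 280.6 ± 18.9 CPM in PWK/PhJ (SD, n = 2) to 731.3 ± 37.7 in CAST/EiJ (SD, n = 3; edgeR adjusted p = 0.000712), and Grm3 from 401.3 ± 56.6 in WSB/EiJ (SD, n = 4) to 695.3 ± 42.5 in CAST/EiJ (SD, n = 3; edgeR adjusted p = 0.0326). Nr4a2 was called too (edgeR adjusted p = 0.00181), at 104.9 and 143.9 CPM in the PWK/PhJ mice and 0 to 76.4 CPM in the other tested mice. Sub-cluster 3, where Nr4a2 is highest, held 39.7% and 27.8% of the nuclei of these PWK/PhJ mice. The part of that proportion in the Nr4a2 difference was not tested.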

How the data were processed

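Cell Ranger ARC 2.0.0 and bcl2fastq 2.20.0.422 are named in the submitters' processing notes, with the builds mm10 and GRCm38 and without their roles. The authors deposited raw UMI counts per gene and barcode for each batch, and, as other values, an annotation table with strain, batch and cluster per nucleus. Per the labels' protocols and columns of that table, strains were called by Demuxlet, nuclei with 200 to 7500 genes and under 15% mitochondrial reads were kept, and DoubletFinder calls were applied. No further filter or doublet caller was used here.

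Counts of the annotated nuclei were summed per mouse. The table gives strain and batch for every nucleus, so each mouse is known, and batch is the block. Levels are counts per 1000000 (CPM) of a mouse's or cluster's total. Strain differences were tested in edgeR 4.0.16 (quasi-likelihood, TMM scaling, expression filter by strain, strain and batch terms, Benjamini-Hochberg adjustment) over mice with at least 10 nuclei in strains with at least 2 such mice. The SE given for a log2 contrast is its absolute value divided by the square root of its F statistic, and was not taken from the fit. Shares were tested by permutation (100000 resamples, two-sided for correlations) on log2 values with 0.5 nuclei added. Ratios between clusters have 5 CPM added. Sub-clusters came from Leiden clustering (leidenalg 0.10.2, resolution 0.25, 15 components, 15 neighbours). Intervals of shares are Clopper-Pearson at 95%, and the limit for a value of 0 is 3 counts of the total. Mice of a strain are separate animals.

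Tested on simulated data of 6079 genes, the strain term recovered 24% of 2-fold and 81% of 4-fold changes placed in CAST/EiJ, and in PWK/PhJ, over 6098 genes, 9% and 67%. Of 113 and 86 calls, 8 and 10 were false. The named strain genes are the 10 with the largest F statistic, the gene with the largest fold per strain and the 10 of a list taken from Drd1+ neurons of the same mice. Between clusters they are the 15 genes each way with the largest ratio among those of at least 100 CPM. The members and all lists were chosen with earlier results of these data known. Locations come from RefSeq on GRCm38.p6, which matched 20 of 24 symbols looked up. The annotation table writes the C57BL strain as a 6NJ substrain and the study's design text as 6J, so C57BL/6 is used. Alternatives were another scaling, DESeq2 1.42.0, no filter, other nucleus minimums, no batch block, each batch left out and, chosen after seeing the data, fewer sub-clusters and the interaction with Drd1+ neurons. Values of 1 gene among the listed markers are not reported here.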

Additional observations from a re-analysis of the deposited data

Results flagged for a closer look

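In groups of 4 to 10 mice, a value far from its neighbours relative to the range was looked for, and chance gives such a value in about 1 in 20 groups. Among the 4 NZO/HlLtJ mice the share of the first Slc17a7+ cluster was 2.628% in batch 4 and at most 0.442% in the other 3. In batch 4 the median depth of the cluster's nuclei was highest in the 129S1/SvImJ mouse, at 9801.0 UMIs. In WSB/EiJ, Catspere1 was at 142.0 CPM in the batch 1 mouse, B530045E10Rik at 10.92 CPM in the same mouse, which is 1 count, and Gm3892 at 1.768 CPM in the batch 2 mouse, also 1 count. The other 3 mice have 0 counts of B530045E10Rik and of Gm3892, so any single count stands apart there and the rate of 1 in 20 does not hold for them.

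For 3 named genes the strain differences in the cluster differed from those in Drd1+ neurons of the same 19 mice by the edgeR interaction test: Btbd9 (adjusted p = 0.03146), Dnah6 (0.02872) and Ulk4 (0.04547). The calls of Btbd9 and Ulk4 were lost when some batches were left out, with edgeR adjusted p of up to 0.511 and 0.88. Dnah6 did not pass the expression filter in any fit with a batch left out, so its call was not checked there.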

How the results depend on the processing

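No result that has a direction turned it. The counts and p-values below have none to turn. The strain term called 166 genes, between 45 and 277 with a batch left out. The calls summed over the 7 strain contrasts, 223 in all, ran from 78 to 339, with A/J from 13 to 42, CAST/EiJ from 43 to 139, NOD/ShiLtJ from 4 to 52 and WSB/EiJ from 9 to 30. The interaction ran from 83 to 287 genes. The batch term of the share ran from p = 0.01449 to 0.07409 by the permutation test. The re-clustering gave 3 to 6 sub-clusters, and the groups highest for Ccn2, Tshz2 and Rarb held 89 to 143, 13 to 174 and 12 to 174 nuclei. Double the resolution gave 8 sub-clusters. Without the replicate block (batch) the strain term called 242 genes, C57BL/6 had 11 calls and PWK/PhJ 100, against 7 and 45 with it. Without the expression filter the strain term called 458 genes and the contrasts 567 in sum: CAST/EiJ 196, PWK/PhJ 116, NOD/ShiLtJ 86, A/J 69, WSB/EiJ 61, C57BL/6 28 and 129S1/SvImJ 11. DESeq2 called 161 genes by the strain term, and 8 in A/J, 58 in CAST/EiJ, 36 in NOD/ShiLtJ and 25 in PWK/PhJ, so that NOD/ShiLtJ came before PWK/PhJ. With mice of at least 5 nuclei C57BL/6 had 12 calls and PWK/PhJ 70. With at least 20 nuclei there were 87 by the strain term and 131 in sum, A/J having 8 and NOD/ShiLtJ 14. With sub-clusters 1 and 2 only, chosen after seeing the data, there were 96 and 114, with A/J 9, CAST/EiJ 47, NOD/ShiLtJ 18, PWK/PhJ 17 and WSB/EiJ 10. The cause of these shifts was not tested. Leaving out a batch or raising the minimum also leaves fewer mice, and the part of that was not tested either. The strain tests are limited by 2 to 4 mice a strain and by depth, the shallowest mouse entering with 91572 counts.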
